A study of Mus musculus with 4 samples.

Results

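Treg suppressor molecules are the proteins through which regulatory T (Treg) cells restrain other cells, and the 9 genes described here were chosen by name: Fgl2, Entpd1, Nt5e, Lrrc32, Ebi3, Il12a, Tgfb1, Areg and Il1rl1. They are 9 of the 47729 gene rows in the count table. The cells were CD4 T cells from the spleen of C57BL/6 mice, activated through CD3 and CD28 per the study's methods and cultured as induced Treg (iTreg) cells in medium with IL-2 at 100 U/mL, TGF-β at 5 ng/mL and blocking antibodies against IFN-γ and IL-4 at 5 µg/mL. The FeSO4 group received 50 µM ferrous sulfate and the Mock group received PBS, both for 4 days, with 2 libraries per group drawn from 2 independent experiments. Age and sex of the mice were not given in the labels. The cells were sequenced in bulk, and whether they were sorted before RNA extraction was not given in the sources used here, so fewer cells of a type and less RNA per cell cannot be told apart.

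Treg cells act on their neighbors by several routes. Entpd1 (CD39) and Nt5e (CD73) are surface enzymes that act in sequence, the former degrading extracellular ATP and ADP to AMP and the latter converting AMP to adenosine, which quiets T cells through its receptors. Tgfb1 is made as a latent precursor that Lrrc32 (GARP) holds at the cell surface until integrins release it. Ebi3 and Il12a encode the chains that are paired in the cytokine IL-35, Fgl2 is a secreted fibrinogen-like effector protein, and Areg and Il1rl1 encode the EGF receptor ligand amphiregulin and the IL-33 receptor ST2, which belong to the tissue repair side of Treg cells.

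The gene rows held 35183187 to 40859178 reads per library, and the biological coefficient of variation between libraries was 8.24%. The iTreg label was checked against its markers. The T cell markers Cd3e and Cd4 lay between 304 and 683 CPM, the read count relative to library size after TMM scaling, in every library, and Il2ra between 1395 and 1586 CPM. Cd3g (log2 fold change 0.50, adjusted p = 2.04e-05) and Trac (0.19, adjusted p = 0.0451) were higher in FeSO4 by edgeR, and the 6 T cell markers summed to 3817 to 4018 CPM under Mock and 3922 to 4143 CPM under FeSO4. Foxp3 stood at 587 and 693 CPM under Mock and 376 and 472 CPM under FeSO4 (log2 fold change -0.59, adjusted p = 0.000223 in edgeR's quasi-likelihood test). Mock replicate 1 stood apart from the other libraries in its low counts, with reads for 19427 genes against 17639 to 18597 elsewhere.

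The suppressor genes spanned a wide range of levels. On the scale of RPKM, the CPM divided by gene length in kilobases, which allows genes of unlike length to be compared, Tgfb1 was highest at 180 to 191 over the 4 libraries, followed by Lrrc32 at 87.7 to 136 and Nt5e at 34.6 to 51.7. Fgl2 (10.6 to 28 RPKM) and Ebi3 (9.59 to 18.5 RPKM) came next, and their ranges overlapped. Entpd1 followed at 3.04 to 4.84 RPKM, at the 38.4th percentile of the genes tested. Areg (0.0487 to 0.761 RPKM), Il1rl1 (0.0429 to 0.187 RPKM) and Il12a (0 to 0.072 RPKM) lay at the bottom, and each overlapped the next in this order. The 5 genes that differed between the groups were all among the 6 genes with more than trace levels. At trace levels few reads make a call unlikely, so no conclusion is drawn from this about the genes there.

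Whether iron supply altered the suppressor genes was asked by comparing FeSO4 with Mock. Of the 9 genes, 8 passed the filter on low counts and Il12a did not. At an adjusted p under 0.05, 5 of the 8 were called, where 20.0% of the 13732 genes tested were called in either direction. Fgl2, Ebi3 and Entpd1 rose (10.9% of all tested genes did), Nt5e and Lrrc32 fell (9.17% of all tested genes did), and Tgfb1, Areg and Il1rl1 did not pass the test. Over all genes, 1491 were higher and 1259 lower, and with scaling by library size only, 980 and 1810. The calls of the suppressor genes were the same under that scaling. FeSO4 and Mock libraries did not overlap in these 5 genes, and nor did they in 59.5% of all genes tested.

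**Figure D1:**
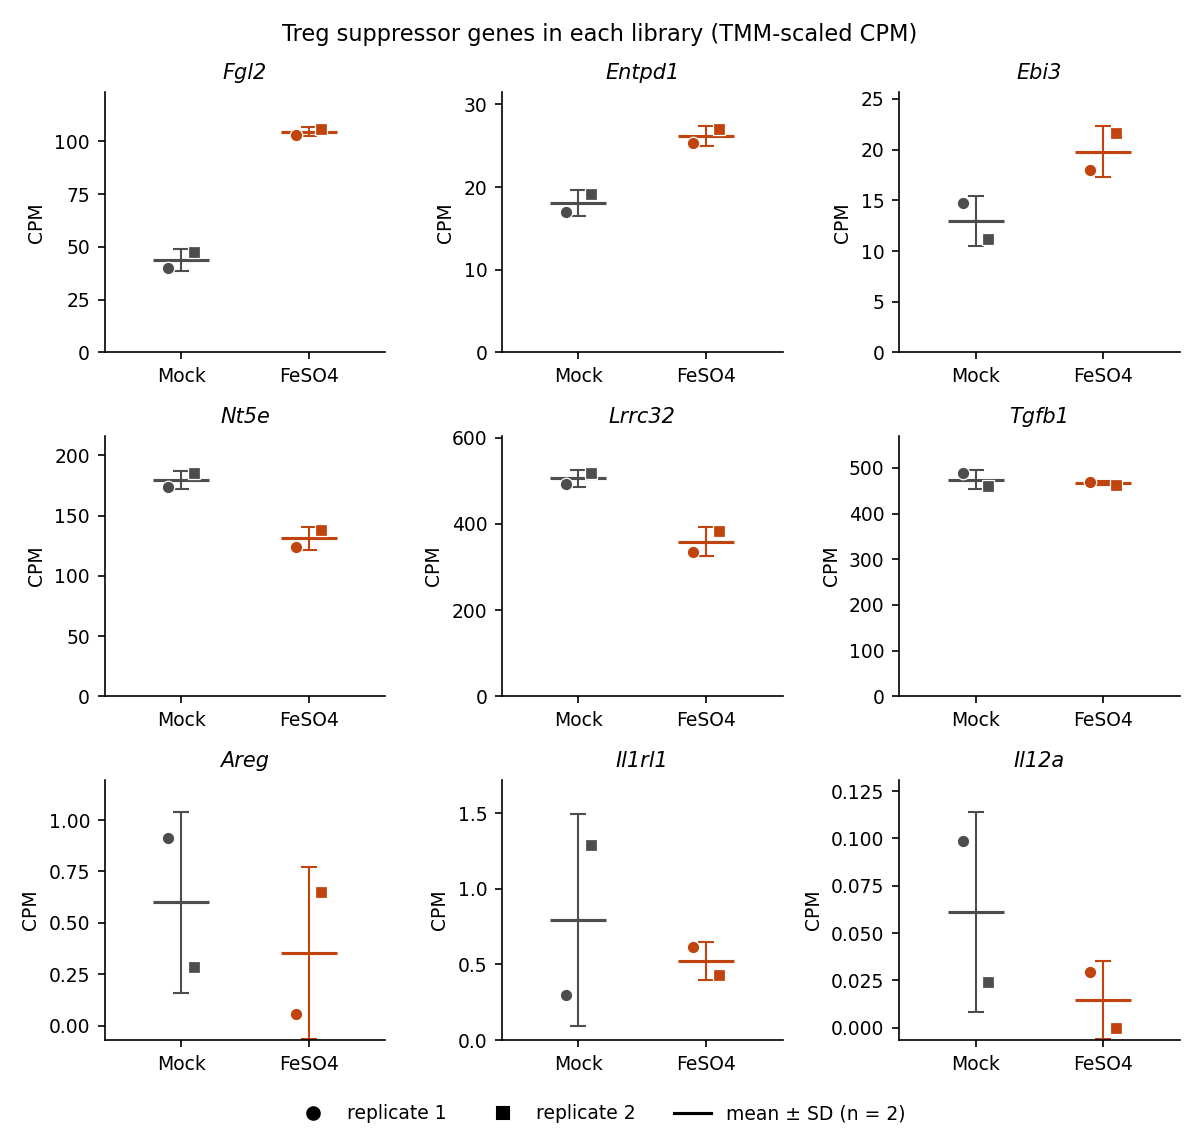
Level of each suppressor gene in each library, as TMM-scaled CPM on the vertical axis, with circles for replicate 1, squares for replicate 2, bars for the mean and error bars for the SD (n = 2). FeSO4 points lie above Mock for Fgl2, Entpd1 and Ebi3 and below Mock for Nt5e and Lrrc32, and the groups overlap for Tgfb1, Areg, Il1rl1 and Il12a.

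Fgl2 (ENSMUSG00000039899), the effector protein that acts on antigen-presenting cells through an inhibitory Fc receptor, had the largest called change of the 8 tested genes. The Mock libraries had 40.1 and 47.5 CPM, and the FeSO4 libraries had 103 and 106 CPM. Both FeSO4 libraries thus stood well above both Mock libraries, and the pair within FeSO4 lay close together. The mean went from 43.8 ± 5.26 CPM under Mock to 105 ± 2.24 CPM under FeSO4 (SD, n = 2), a log2 fold change of 1.25 ± 0.08 (SE, 95% interval 1.07 to 1.43) or 2.38-fold, with an adjusted p of 3.92e-08 in edgeR's quasi-likelihood test. By p it ranked 14th of the 13732 genes. With each library left out in turn the log2 fold change stayed between 1.13 and 1.39, and the call held in all 4 fits.

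Entpd1 (ENSMUSG00000048120), the enzyme that starts the breakdown of extracellular ATP, also rose. Its levels were 17 and 19.2 CPM under Mock, against 25.3 and 27 CPM under FeSO4. No Mock library reached the lower FeSO4 library. The mean went from 18.1 ± 1.62 to 26.2 ± 1.19 CPM (SD, n = 2), a log2 fold change of 0.53 ± 0.11 (SE, 95% interval 0.30 to 0.77) and 1.45-fold, with an adjusted p of 0.00298 in edgeR's quasi-likelihood test. The call was lost only where no filter on low counts was applied, at an adjusted p of 0.0523 with the log2 fold change at 0.54, and under edgeR's default form of the test it was kept there too (adjusted p = 0.00154).

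Nt5e (ENSMUSG00000032420), the enzyme that completes that pathway, moved the other way. It stood at 174 and 185 CPM with Mock treatment but only at 124 and 138 CPM with FeSO4, so that the 2 FeSO4 libraries were the lowest. The mean went from 180 ± 8.04 to 131 ± 10.1 CPM (SD, n = 2), which is a log2 fold change of -0.46 ± 0.07 (SE, 95% interval -0.61 to -0.30) with an adjusted p of 0.000278 in edgeR's quasi-likelihood test. The 2 enzymes of the adenosine pathway therefore changed in opposite directions. Expressed as a ratio within a library on the RPKM scale, Nt5e exceeded Entpd1 by 16 and 15 in Mock and by 7.62 and 7.97 in FeSO4. The ratio fell from a mean of 15.5 ± 0.695 to 7.79 ± 0.249 (SD, n = 2) without overlap, and the smallest two-sided p that an exact permutation test can give with these libraries is 0.333.

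Lrrc32 (ENSMUSG00000090958), the anchor of latent TGF-β on Treg cells, fell as well. Mock cells had 492 and 519 CPM of it, and FeSO4 cells had 335 and 383 CPM. All Mock values lay above all FeSO4 values, though the FeSO4 libraries differed more from each other. The mean went from 506 ± 19.6 to 359 ± 34 CPM (SD, n = 2), a log2 fold change of -0.49 ± 0.07 (SE, 95% interval -0.64 to -0.35) with an adjusted p of 9.11e-05 in edgeR's quasi-likelihood test. Foxp3, given above, fell in the same libraries, and its part in the change of Lrrc32 and Nt5e was not tested. Nt5e and Lrrc32 kept their calls with every library left out in turn. Both lay just under a log2 change of 0.5 in size, and so were not counted when the study's threshold was used (p under 0.05 before adjustment and a log2 change of 0.5 or more in size), which on the edgeR values counted Fgl2, Entpd1 and Ebi3 together with 10.4% of all tested genes.

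Tgfb1 (ENSMUSG00000002603), the cytokine that Lrrc32 presents, had the highest RPKM of the 9. Mock libraries held 489 and 460 CPM, and FeSO4 libraries held 470 and 463 CPM. The FeSO4 values lay within the Mock range. The log2 fold change was -0.03 ± 0.06 (SE), and its 95% interval ran from -0.15 to 0.10 (adjusted p = 0.816, edgeR's quasi-likelihood test). The interval bounds the change at 0.9-fold to 1.07-fold. On the RPKM scale, the ratio of Lrrc32 to Tgfb1 was 0.673 and 0.757 in Mock and 0.477 and 0.554 in FeSO4. These ratios did not overlap between the groups, and their means were 0.715 ± 0.059 and 0.516 ± 0.0541 (SD, n = 2).

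**Figure D2:**
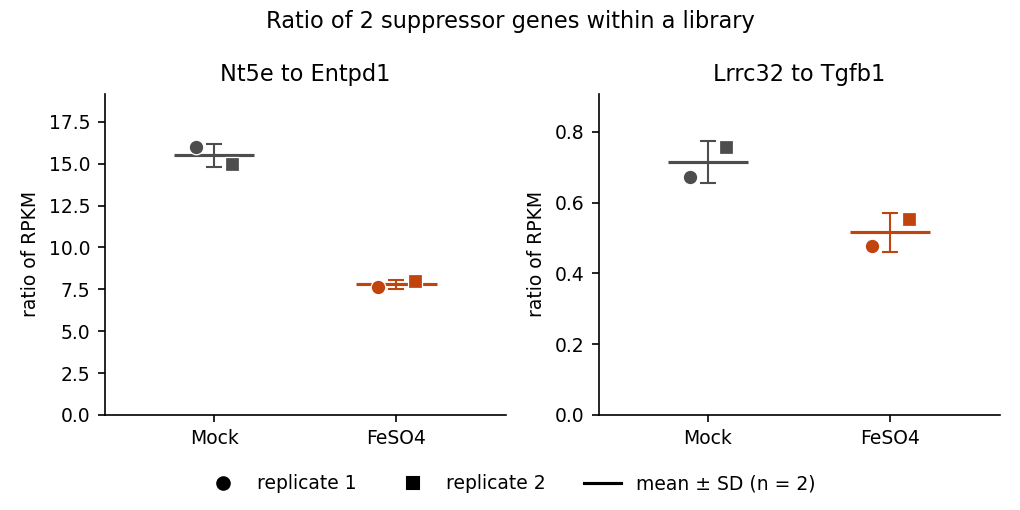
Ratios on the RPKM scale within each library, for Nt5e to Entpd1 and for Lrrc32 to Tgfb1, with circles for replicate 1, squares for replicate 2, and bars and error bars for the mean and SD (n = 2). Both ratios are lower in the FeSO4 libraries than in either Mock library.

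Ebi3 (ENSMUSG00000003206), the chain shared by IL-35 and IL-27, stood at 14.7 and 11.2 CPM under Mock and 18 and 21.6 CPM under FeSO4. The 2 libraries of a group lay further apart, relative to their level, than for Fgl2 or Entpd1, but the groups did not overlap. The mean rose from 13 ± 2.46 to 19.8 ± 2.53 CPM (SD, n = 2), a log2 fold change of 0.62 ± 0.14 (SE, 95% interval 0.31 to 0.92) and 1.54-fold, with an adjusted p of 0.00602 in edgeR's quasi-likelihood test. This call depended on 2 libraries and on the form of the test. Without Mock replicate 2 the log2 fold change was 0.44 (adjusted p = 0.0734) and without FeSO4 replicate 2 it was 0.48 (adjusted p = 0.0551), and it was also lost without a filter on low counts (adjusted p = 0.103). Under edgeR's default form of the test only the loss without Mock replicate 2 remained (adjusted p = 0.0747, against 0.0308 without FeSO4 replicate 2 and 0.00247 without a filter). In the GENCODE M1 annotation, exons of Ebi3 overlap those of Gm16712 on the other strand. Because the strand setting of the counting was not given in the sources used here, reads of the 2 genes cannot be told apart.

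Il12a (ENSMUSG00000027776), the other chain of IL-35, was close to undetected. It had 4 and 1 reads in Mock and 1 and 0 in FeSO4. Where no read was found, a count of up to 3 is allowed (one-sided limit at 95%), which is 0.081 CPM in FeSO4 replicate 2 and covers counting error only. A difference in Il12a was not detectable at this depth, and no fold change is given. The Ebi3 RNA in these cultures was therefore measured nearly without its IL-35 partner.

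Areg (ENSMUSG00000029378), the growth factor that Treg cells release in injured tissue, was also sparse, with 37 and 12 reads in Mock and 2 and 24 in FeSO4. On the CPM scale these are 0.912 and 0.287 in Mock and 0.0584 and 0.648 in FeSO4. Each group held a high and a low library, and the groups overlapped. The log2 fold change of -0.70 ± 0.74 (SE, 95% interval -2.27 to 0.87) did not pass edgeR's quasi-likelihood test (adjusted p = 0.557). Without Mock replicate 1 it was 0.33, and without FeSO4 replicate 1 it was 0.13.

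Il1rl1 (ENSMUSG00000026069), which encodes ST2 and marks Treg cells that respond to IL-33, had 12 and 54 reads in Mock and 21 and 16 in FeSO4. The highest and the lowest library were both Mock libraries, at 1.29 and 0.296 CPM, and FeSO4 lay between them at 0.613 and 0.432 CPM. The log2 fold change was -0.62 ± 0.62 (SE, 95% interval -1.94 to 0.70, adjusted p = 0.533 in edgeR's quasi-likelihood test), and without Mock replicate 2 it was 0.81. For both Areg and Il1rl1 the intervals are so wide that a large change in either direction is within them.

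**Figure D3:**
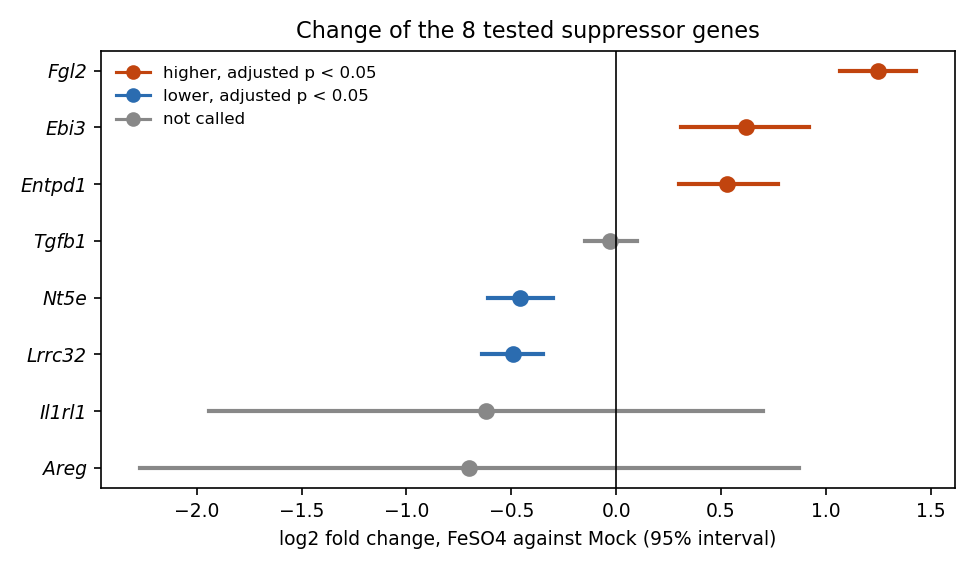
Log2 fold change of FeSO4 against Mock (horizontal axis) for the 8 tested suppressor genes, with points for the estimate and lines for its 95% interval from edgeR. The intervals of Fgl2, Ebi3 and Entpd1 lie above 0, those of Nt5e and Lrrc32 below 0, and those of Tgfb1, Areg and Il1rl1 include it.

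**Figure D4:**
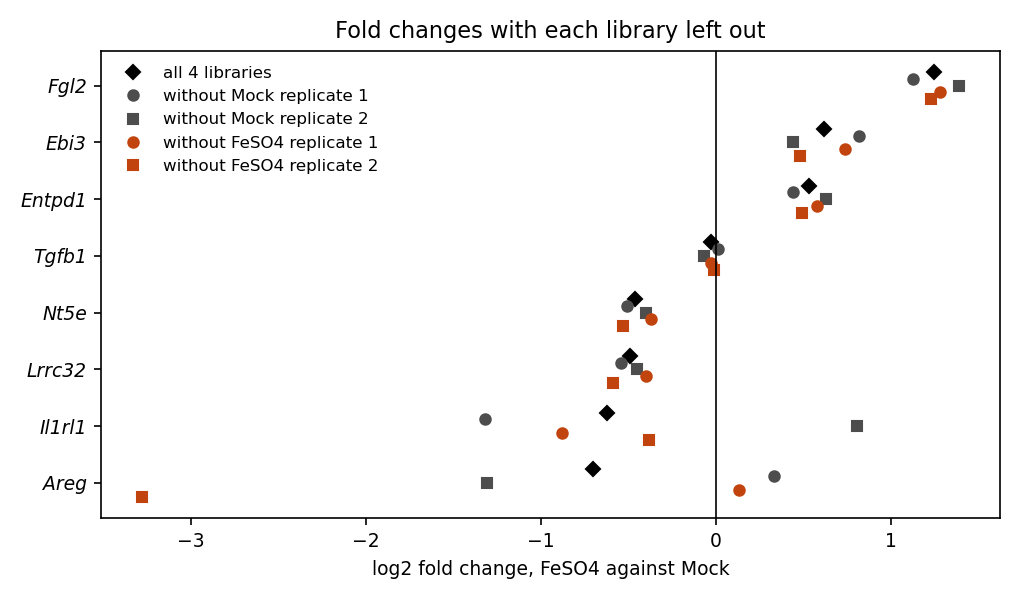
Log2 fold change of FeSO4 against Mock (horizontal axis) for the 8 tested suppressor genes with all 4 libraries (diamonds) and with each library left out in turn (circles and squares). Fgl2, Ebi3, Entpd1, Nt5e and Lrrc32 stay on one side of 0, whereas Areg, Il1rl1 and Tgfb1 change sign.

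The promoters of the 3 genes that rose and of Nt5e, which fell, are shown so that the sequences beside these changes can be read. Each line gives the 250 bases before the first base of the gene on its own strand, 5′ to 3′, from the RefSeq annotation of GRCm38.p6 (plus strand throughout). The regions are chr5:21372423-21372672 for Fgl2, chr19:40612116-40612365 for the first listed start of Entpd1, chr17:55952373-55952622 for Ebi3 and chr9:88327359-88327608 for Nt5e. Capitals mark matches, on either strand, to 7 short motifs searched for: the hypoxia response element core as ACGTG or GCGTG, the MAF core TGCTGA, the AP-1 site TGANTCA, the cyclic AMP response core TGACG, the forkhead site TGTTTAC and the TATA box TATAAA.
Fgl2: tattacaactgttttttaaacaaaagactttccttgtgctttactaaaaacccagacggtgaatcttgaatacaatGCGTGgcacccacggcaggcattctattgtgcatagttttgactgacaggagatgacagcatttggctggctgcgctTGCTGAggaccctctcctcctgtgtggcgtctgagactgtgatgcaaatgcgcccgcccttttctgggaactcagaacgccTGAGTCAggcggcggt
Entpd1: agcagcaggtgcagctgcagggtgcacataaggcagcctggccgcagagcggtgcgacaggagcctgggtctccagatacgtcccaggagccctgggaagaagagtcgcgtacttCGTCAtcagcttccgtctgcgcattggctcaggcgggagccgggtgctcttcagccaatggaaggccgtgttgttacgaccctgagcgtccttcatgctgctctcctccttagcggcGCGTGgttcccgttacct
Ebi3: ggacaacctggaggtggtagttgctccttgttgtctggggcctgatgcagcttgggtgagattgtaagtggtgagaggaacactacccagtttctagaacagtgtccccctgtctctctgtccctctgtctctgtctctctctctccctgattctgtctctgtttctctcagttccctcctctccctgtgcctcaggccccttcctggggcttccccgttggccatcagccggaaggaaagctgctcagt
Nt5e: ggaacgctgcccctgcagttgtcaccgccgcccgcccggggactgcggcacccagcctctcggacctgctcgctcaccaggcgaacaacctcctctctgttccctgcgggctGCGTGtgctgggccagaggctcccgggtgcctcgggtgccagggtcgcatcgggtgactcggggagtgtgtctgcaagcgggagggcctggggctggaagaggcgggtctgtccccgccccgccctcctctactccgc

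In the Fgl2 promoter, GCGTG stood 174 to 170 bases before the start, TGCTGA at 97 to 92 and TGAGTCA, an AP-1 match, at 16 to 10. GCGTG was found in 28.2% of the 32851 mouse promoters of this length, TGCTGA in 16.1% and TGANTCA in 6.75%. The Entpd1 promoter held GCGTG at 18 to 14 and CGTCA, the reverse complement of TGACG, at 135 to 131, a motif found in 17.8% of promoters. The Nt5e promoter held GCGTG at 138 to 134, and the Ebi3 promoter held none of the 7 motifs. The GCGTG match was thus present upstream of genes that rose (Fgl2, Entpd1) and of a gene that fell (Nt5e), and also upstream of Tgfb1, which was not called, and of the second listed starts of Il12a and Il1rl1. No matches in the printed promoters overlap. These are matches of letters in a window, not binding sites. A promoter was available for 8 of the 9 genes, and Lrrc32 was the exception.

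Each gene was placed on GRCm38.p6. Fgl2 spans chr5:21372673-21378386. In the GENCODE M1 annotation its span overlaps that of Ccdc146 on the other strand, but the exons of these genes do not overlap. Entpd1 spans chr19:40612366-40741602, Nt5e chr9:88327609-88372089, Lrrc32 chr7:98489305-98501831, Ebi3 chr17:55952623-55957022, Il12a chr3:68690644-68698550 and Tgfb1 chr7:25687002-25705077. Areg spans chr5:91139599-91148432 in a cluster of EGF family genes. Its neighbors Epgn, Ereg and Btc had 0 to 5 reads in any library, so the whole cluster was nearly silent. Il1rl1 spans chr1:40404864-40465418 in the IL-1 receptor cluster, whose members were read at unlike levels. Il1r2 (log2 fold change 1.87), Il18rap (0.68) and Il1rl2 (1.43, named after its values were seen) were higher in FeSO4, and Il18r1 was at -0.03 (adjusted p = 0.796 in edgeR). Il1r1, also named after its values were seen, had only 5 and 4 reads in Mock and 14 and 24 in FeSO4. Its adjusted p was 0.0443 in edgeR, but it was not called with any library left out (adjusted p = 0.11 to 0.359), nor by DESeq2 (0.126), limma-voom (0.0603) or library size scaling (0.0504).

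The genes around the 9 suppressor molecules were read from 7 lists, which held 107 genes, 76 of them tested. In edgeR's quasi-likelihood test 18 were higher and 8 were lower, or 34.2% of those tested, beside 20.0% of all genes tested (10.9% higher and 9.17% lower). The shares called in the adenosine list (18.8%) and the TGF-β list (25%) were near that of all genes. Among genes that handle extracellular ATP and adenosine, 3 of 16 tested rose and 0 fell, with a median log2 fold change of 0.01 (-0.001 over all genes tested). Dpp4 (CD26) rose from 34.5 and 35.9 CPM to 52.5 and 59.4 CPM. The adenosine receptor gene Adora2a rose from 8.9 and 7.63 to 12.6 and 12.1 CPM. Adk, which phosphorylates adenosine, rose from 18.2 and 18.4 to 24 and 24.5 CPM. The call of Adora2a was lost without Mock replicate 2 (adjusted p = 0.102) and without FeSO4 replicate 1 (0.0566), and that of Adk without Mock replicate 1 (0.0512) and without FeSO4 replicate 2 (0.0677).

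Among the genes of TGF-β storage and activation, 1 of 8 tested rose and 1 fell (median 0.02). Tgfb3, another TGF-β ligand, rose from 2.56 and 1.77 CPM to 5.17 and 4.32 CPM (log2 fold change 1.13, adjusted p = 0.00678 in edgeR), and its call was lost without Mock replicate 2 (adjusted p = 0.0733). Ltbp1, which binds latent TGF-β to the matrix, was under 1 CPM in every library (log2 fold change -2.51, adjusted p = 0.0254 in edgeR), and its call was lost without Mock replicate 1, FeSO4 replicate 1 or FeSO4 replicate 2 (adjusted p = 0.106 to 0.203), and by DESeq2 with all libraries (0.0548), while the filter of at least 10 counts in every library removed it. Of the IL-12 family list, which surrounds Ebi3 and Il12a, 2 of 10 tested rose and 2 fell (median -0.01). Il12rb1, a receptor chain for IL-12 and IL-23, rose from 18 and 19.5 CPM to 52.6 and 40.1 CPM (log2 fold change 1.30). The shared receptor chain gene Il6st fell from 76.4 and 95.9 to 61.5 and 68.5 CPM and the kinase gene Jak1 from 573 and 602 to 507 and 511 CPM. The call of Il6st was lost without Mock replicate 2 (adjusted p = 0.111), and that of Jak1 without Mock replicate 2, FeSO4 replicate 1 or FeSO4 replicate 2 (0.0957 to 0.136).

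The list of EGF family ligands, sheddases and receptors around Areg had 0 called of 8 tested in edgeR, and 0 at an unadjusted p under 0.05, and DESeq2 and limma-voom also called 0. Of the genes of IL-33 and ST2 signaling around Il1rl1, 3 of 13 tested rose, Il1r1 among them, and 2 fell (median -0.03). Il1r2, a decoy receptor, rose from 1.16 and 0.574 to 2.63 and 3.67 CPM and Il18rap, an IL-18 receptor chain, from 15.1 and 11.3 to 20.5 and 21.8 CPM. The adaptor gene Traf6 fell from 322 and 367 to 275 and 251 CPM. Gata3, a transcription factor of ST2-bearing Treg cells, fell from 66 and 65 CPM to 50.8 and 58.1 CPM (log2 fold change -0.27, adjusted p = 0.0321 in edgeR), and its call was lost without Mock replicate 1, Mock replicate 2 or FeSO4 replicate 1 (0.0717 to 0.365).

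Of the list around Fgl2 (relatives, receptors and upstream factors), 3 of 4 tested rose and 0 fell, with a median of 0.94, while 6 of the 10 genes listed were below the filter. The 3 were the transcription factor genes Prdm1 (from 0.69 and 1.03 to 2.69 and 4.05 CPM), Batf (from 25.6 and 27.2 to 42 and 44.5 CPM) and Irf4 (from 113 and 124 to 174 and 179 CPM), factors of effector Treg cells. In a list of other suppressor genes of Treg cells, 6 of 17 tested rose and 3 fell (median 0.17). The cytokine gene Il9 rose from 29.2 and 20.4 to 87.5 and 64.4 CPM, the costimulatory receptor gene Icos from 104 and 104 to 160 and 158 CPM, and the galectin gene Lgals1 from 913 and 818 to 1203 and 1179 CPM. Nrp1, a surface receptor of Treg cells, fell from 112 and 130 to 66.8 and 77.3 CPM. Without a filter on low counts, 10 genes of the 7 lists were higher and 2 were lower, and Adora2a, Adk, Tgfb3, Ltbp1, Il6st, Jak1, Il18rap, Il1r2, Traf6 and Gata3 were not called (adjusted p = 0.0576 to 0.159). Under edgeR's default form of the test without a filter, 16 genes were higher and 8 were lower, and these 10 genes were called (adjusted p = 0.000332 to 0.0438).

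**Figure D5:**
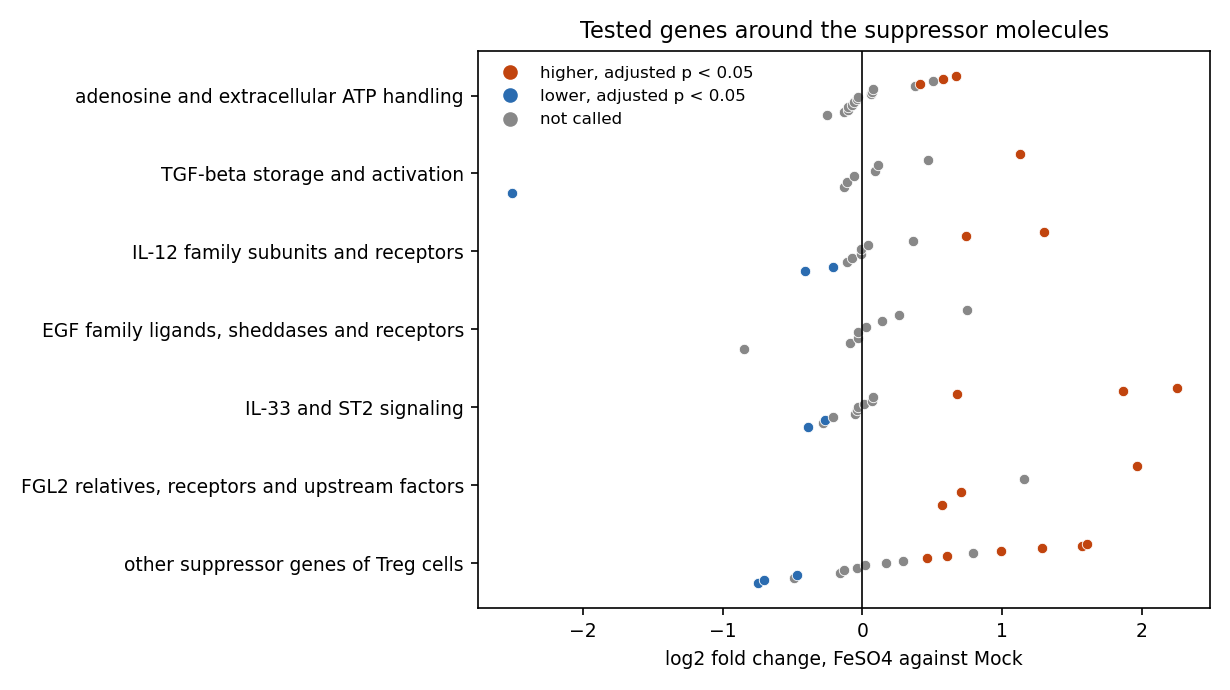
Log2 fold change of FeSO4 against Mock (horizontal axis) for the tested genes of 7 lists around the suppressor molecules, 1 point per gene, orange where higher and blue where lower at an adjusted p under 0.05 in edgeR and grey where not called. The lists hold 18 genes higher and 8 lower, none of them in the EGF family list.

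By the distance between log2 CPM values centred over the 4 libraries, the genes most like Fgl2 among 8521 with a mean of at least 10 CPM were ENSMUSG00000093930 (distance 0.112), Trat1 (0.115) and Cyp51 (0.135). Those most like Ebi3 were 2610002D18Rik (0.0717), Zfp467 (0.103) and Il18rap (0.145). Likeness over 4 libraries of 2 groups is a description of these libraries.

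Several suppressor genes are also expressed by other cells, and markers of those cells were counted. The study's methods describe an isolation kit for naive CD4 T cells ahead of culture, a step that removes most such cells. Of 6 megakaryocyte and platelet markers, checked because platelets carry Lrrc32, 5 had at most 3 reads in every library (Ppbp, Gp9, Gp1bb and Gp6 had 0), and their summed level was 1.06 to 1.1 CPM under Mock and 0.567 to 0.817 CPM under FeSO4. Of 6 mast cell and basophil markers, relevant to Il1rl1 and Areg, Mcpt8 and Fcer1a had 0 reads and the sum, 161 to 181 CPM under Mock and 84.8 to 89.7 CPM under FeSO4, was almost entirely Kit (log2 fold change -0.97, adjusted p = 1.56e-07 in edgeR). Of 8 monocyte, macrophage and dendritic cell markers, which bear on Fgl2 and Ebi3, 1 was called (Cst3, higher) and the sum was 89.6 to 99.9 CPM under Mock and 117 to 120 CPM under FeSO4, while Lyz2 had 164 and 8 reads in Mock and 0 in both FeSO4 libraries. Of 6 B cell markers, which bear on Nt5e, Entpd1 and Ebi3, 1 was called (Ighm, higher) and the sum was 162 to 173 CPM under Mock and 248 to 278 CPM under FeSO4. The rises of Cst3 and Ighm came beside those of Fgl2, Entpd1 and Ebi3, and their part was not tested. Of 4 CD8 T and NK cell markers none was called in edgeR, at a sum of 9.04 to 9.81 CPM under Mock and 9.95 to 11 CPM under FeSO4. Of 6 resting T cell markers, 2 rose and 3 fell, at a sum of 1489 to 1496 CPM under Mock and 1319 to 1592 CPM under FeSO4. Without Mock replicate 1, the library with most reads of Lyz2 and Igkc, the log2 fold changes were 1.13 for Fgl2, 0.44 for Entpd1, 0.82 for Ebi3, -0.51 for Nt5e and -0.54 for Lrrc32, all still called.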

How the data were processed

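Bulk RNA of 2 Mock and 2 FeSO4 cultures was sequenced, and groups were taken from the labels. The authors deposited 1 table of raw counts, 1 row per Ensembl gene and without normalization. Per the labels' processing notes, Trim Galore 0.6.7, STAR 2.7.9a, featureCounts and build mm10 were used, whereas the study's methods name mm9, STAR and DESeq. Positions and promoters from RefSeq GRCm38.p6 are therefore for orientation. Closing rows of unassigned reads (15.9 to 17.3% of a library) were left out. Of 47729 IDs, 32799 had a symbol.

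The filter filterByExpr kept 13732 genes, which were scaled by TMM and tested by the quasi-likelihood F test of edgeR 4.0.16 (R 4.3.3), with p-values adjusted after Benjamini and Hochberg across the 13732. The setting legacy = FALSE was used, to follow earlier processing of these data. That setting had not been laid down beforehand and was adopted after the calls under it and under the default had both been seen. The default is given as an alternative. A standard error is the log2 fold change divided by the square root of F. RPKM used exon lengths of GENCODE M1. A count of 3, the one-sided 95% upper limit a count of 0 allows, is 0.0717 to 0.0876 CPM, counting error only. Chi-square values over genes were 11.4 per degree of freedom between the Mock libraries and 9.35 between the FeSO4 libraries. Libraries within a group thus differed by more than counting error. Libraries of different groups were not compared in this way. Whether the cultures were separate per mouse was not given, so p-values measure the spread between these libraries.

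The suppressor genes, lists, markers and motifs were chosen with earlier results of these data known. Named are the 9 genes, in each list at most 4 of the called genes, taken in order of p, the 3 genes of most similar pattern for each of Fgl2 and Ebi3, the markers, and neighbors in the genome. Some list genes and markers are counted but not reported by name. Alternatives were DESeq2 1.42.0, limma-voom (limma 3.58.1), other scalings and filters, a replicate block, the study's threshold and each library left out in turn.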

Additional observations from a re-analysis of the deposited data

How the results depend on the processing

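With all 4 libraries, Fgl2, Nt5e and Lrrc32 kept their direction and an adjusted p under 0.05 under DESeq2, limma-voom, each scaling and filter, the replicate block and the edgeR default. Without a filter on low counts, Entpd1 (0.54, adjusted p = 0.0523) and Ebi3 (0.62, 0.103) were not called, which left 1 suppressor gene higher. That fit called 524 genes higher and 304 lower over all genes, and 10 and 2 in the lists. The edgeR default was run first, and the reported setting replaced it after both sets of calls had been seen. The default called 1455 genes higher and 1221 lower (1491 and 1259 in the reported fit) and, without a filter, 1369 and 1215 with Entpd1 (adjusted p = 0.00154) and Ebi3 (0.00247) called, and 16 and 8 in the lists. Scaling by library size only gave 980 genes higher and 1810 lower, and 17 and 11 in the lists, and moved the median of all genes by -0.0649. The study's threshold, applied to the edgeR values, counted 641 genes higher, 787 lower and 0 suppressor genes lower, since Nt5e (-0.46) and Lrrc32 (-0.49) are under its size limit. Lrrc32 passed that size under upper quartile scaling (-0.51), and both did under library size only (-0.56 and -0.52 for Nt5e). Entpd1, in turn, was under that size with scaling by library size only (0.47).

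With each library left out in turn, 893 to 1199 genes were higher and 710 to 1158 lower (927 to 1159 and 799 to 1030 under the edgeR default), and 13 to 17 and 5 to 7 in the lists (13 to 18 and 4 to 7 under the default). Across these fits Ebi3 ranged from 0.44 to 0.82, Tgfb1 from -0.07 to 0.01, Areg from -3.28 to 0.33 and Il1rl1 from -1.32 to 0.81, and under the default Areg from -3.29 to 0.30 (0.12 without FeSO4 replicate 1) and Il1rl1 from -1.31 to 0.82. Ebi3 was not called without Mock replicate 2 (adjusted p = 0.0734, and 0.0747 under the default) and without FeSO4 replicate 2 (0.0551, but 0.0308 under the default). An arm left with 1 library is assumed to vary like the other. The causes were not tested.

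The study's methods describe the samples as 2 pairs from 2 independent experiments. The labels do not say whether the replicate numbers mark these pairs, and the numbers were not shown to pair the samples. The differences between replicates 1 and 2 in the groups had r = 0.0293 across 13732 genes, which are not independent. The replicate block called 1847 genes higher and 1580 lower and changed no call of a suppressor gene (Fgl2 1.26, Entpd1 0.53, Ebi3 0.62, Nt5e -0.46, Lrrc32 -0.50). Depth limits Il12a, at 0 to 4 reads per library. For Areg in both groups and Il1rl1 in Mock, the exact two-sided 95% Poisson intervals of the libraries of a group did not overlap, so these libraries differed by more than counting error.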
